A study of Mus musculus with 36 samples.

Results

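Collagens are the triple-helical proteins of the extracellular matrix, and their genes were followed in neoplastic cells from mouse lung tumours. The members are the 44 genes of the deposited count table whose identifier belongs to a protein-coding mouse gene with a symbol of the form Col, digits, a, digits, of 49585 gene identifiers in all and 21734 protein-coding ones. Expression was measured by RNA sequencing of cells sorted for the green fluorescent reporter EGFP from tumours driven by EML4-ALK, a cancer-causing gene fusion in which the kinase domain of ALK is attached to an EML4 fragment. The 4 groups of 9 tumours were Variant 3 with sgSetd2, Variant 3 with sgNeo, Variant 1 with sgSetd2 and Variant 1 with sgNeo. The variants are forms of the fusion that keep different lengths of EML4, sgSetd2 is a guide RNA against Setd2, the gene of the methyltransferase that trimethylates histone H3 lysine 36, and sgNeo is the control guide. All 36 tumours carried the fusion and a guide, and all came from lung. The labels give neither age nor strain, and do not say how the fusion or the guide was delivered. Each group holds 3 title codes (CE450, CE454 and CE456 in Variant 3 sgSetd2; CE428, CE429 and CE433 in Variant 3 sgNeo; CE475, CE479 and CE483 in Variant 1 sgSetd2; CE467, CE468 and CE472 in Variant 1 sgNeo) with 3 tumours per code. What a code stands for is not explained in the labels. Counts were therefore summed per code for testing, n = 3 codes per group, so every p-value is relative to variation among codes, which may be technical.

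Collagen chains are made in the endoplasmic reticulum, hydroxylated, wound into a triple helix and secreted. Fibrillar collagens such as type I and type III form the rope-like fibres laid down mainly by fibroblasts. Type IV collagen is the sheet-forming network of basement membranes, which epithelial cells of the lung alveolus help to make. The multiplexins, types XV and XVIII, sit at the basement membrane, and the end of the type XVIII chain is released as endostatin, an inhibitor of vessel growth. Types XII, XIV and XX belong to the FACIT family, which decorates the surface of fibrils, and type VI forms beaded microfilaments around cells. Sorted neoplastic cells can carry RNA of neighbouring fibroblasts, of which Col1a1 is a defining transcript.

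Total counts, in units of 1e6, ran from 17.9 to 137.2 per tumour and from 91.5 to 212.1 per code. Epithelial identity was present in every library, since the summed level of 8 lung epithelium genes ran from 29059 to 197416 CPM (read counts relative to the library total, scaled between libraries by the trimmed mean of M-values) and all 8 were at 1 CPM or more in every tumour. Setd2 itself ranged from 28.2 to 81.7 CPM in Variant 3 sgSetd2 tumours and from 39.2 to 68.8 CPM in Variant 3 sgNeo tumours, which overlap. It ranged from 27.4 to 46.4 CPM in Variant 1 sgSetd2 tumours and from 43.5 to 94.6 CPM in Variant 1 sgNeo tumours. For Setd2 the log2 fold change of sgSetd2 over sgNeo was -0.26 in Variant 3 (adjusted p = 0.647) and -0.86 in Variant 1 (adjusted p = 0.0825). Averaged over variants it was -0.56 (adjusted p = 0.0501). By mRNA, Setd2 passed the threshold in none of these contrasts, and the edit itself was not analysed here.

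Every one of the 44 genes had at least 1 count in some tumour, but few carried most of the signal. Per kilobase of exon, the mean level over the 36 tumours was 59.3 CPM for Col4a1, 33.4 for Col18a1, 28.5 for Col4a2 and 16.9 for Col6a1. Next came Col4a3 at 5.51 CPM per kilobase, Col15a1 at 4.44, Col4a5 at 3.65 and Col6a2 at 2.66. These 8 genes held 93.1% of the summed mean level of all collagen genes. Col4a4 (2.14), Col14a1 (1.77), Col12a1 (1.28) and Col1a1 (1.03) followed on the same scale. At the other end, Col6a5, Col17a1, Col13a1, Col25a1, Col19a1, Col6a4, Col22a1 and Col11a1 had mean levels of at most 0.0942 CPM, had counts in 3 to 18 tumours, and passed neither the filter on low counts nor the minimum for classification, so 36 genes were tested and 36 were classified.

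**Figure D1:**
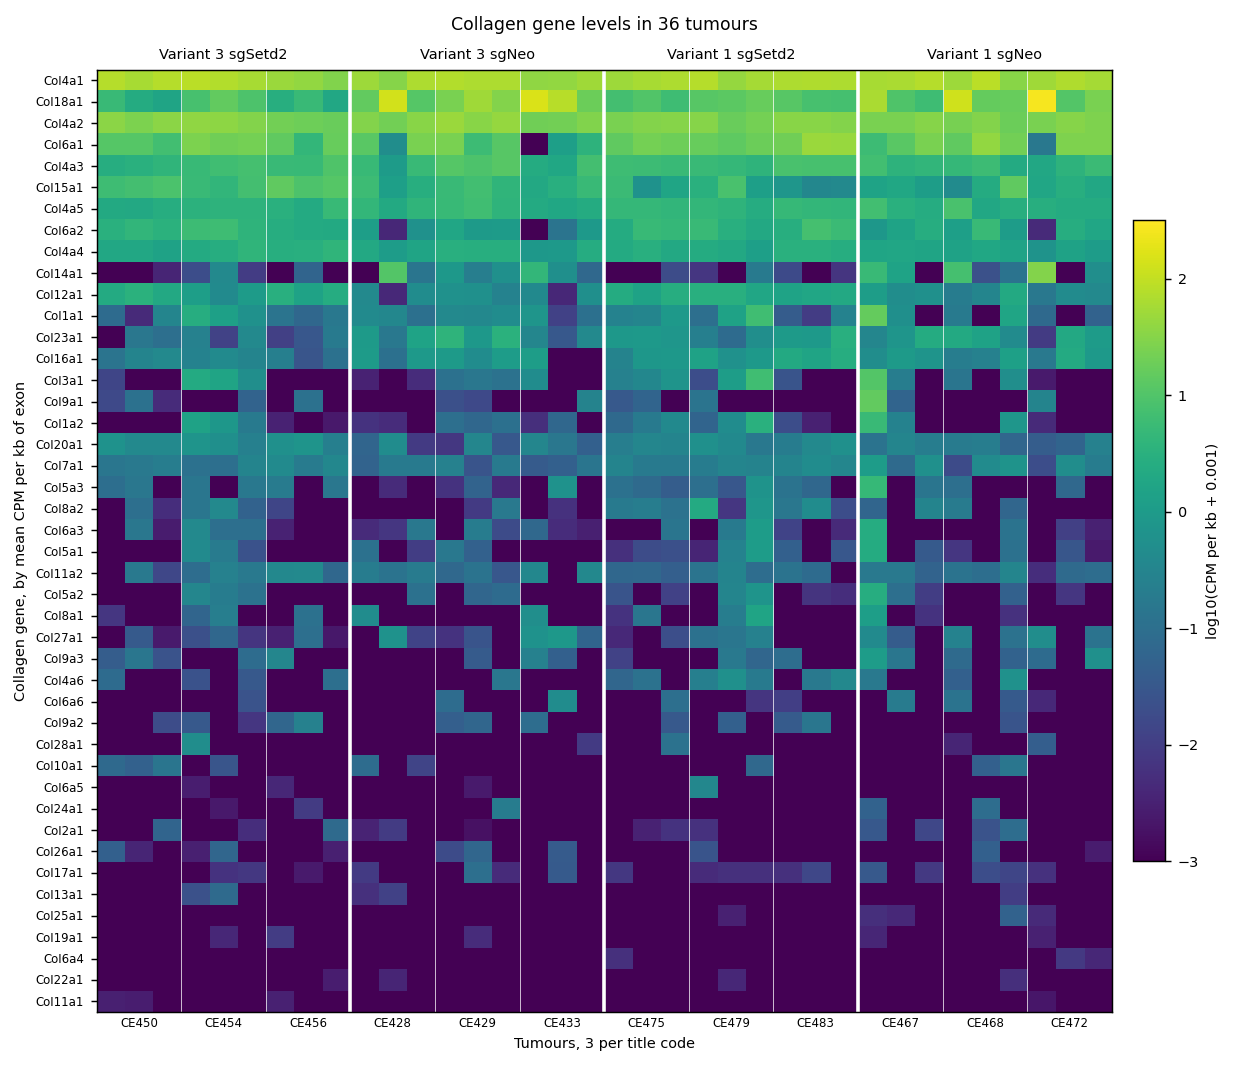
Level of each of the 44 collagen genes (rows, ordered by mean) in each of the 36 tumours (columns, 3 per title code, grouped by variant and guide), as log10 of CPM per kilobase of exon plus 0.001. Col4a1 and Col4a2 form even bright rows, Col18a1 varies between 11.5 and 1825 CPM, and Col1a1, Col3a1 and Col1a2 light up in the same few tumours.

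Of the type IV collagen chains of basement membranes, Col4a1 and Col4a2 varied little between tumours. Col4a1, which with Col4a2 builds the common network of basement membranes, lay between 216 and 646 CPM over the 36 tumours, a 2.99-fold range, and Col4a2 spanned 2.68-fold. The mean of Col4a1 was 462 ± 156 CPM in Variant 3 sgSetd2 codes and 401 ± 93.8 in Variant 3 sgNeo codes, and 467 ± 38.6 CPM in Variant 1 sgSetd2 codes and 437 ± 41.3 in Variant 1 sgNeo codes (SD, n = 3 codes each). The code values of the guides overlapped in both variants. Col4a2 had a mean of 192 ± 59 CPM in Variant 3 sgSetd2 and 198 ± 43.3 in Variant 3 sgNeo codes, and of 193 ± 29.2 CPM in Variant 1 sgSetd2 and 170 ± 10.8 in Variant 1 sgNeo codes. Averaged over variants, the log2 fold change of sgSetd2 against sgNeo was 0.15 for Col4a1 (SE 0.17, adjusted p = 0.669) and 0.07 for Col4a2 (SE 0.16, adjusted p = 0.851). Together Col4a1 and Col4a2 held a median of 60.5% of the per-kilobase collagen level of a tumour, between 20.2% and 77.6%.

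Both genes lie head to head on chromosome 8 (GRCm38, Col4a1 from 11198423 to 11312826 on the minus strand and Col4a2 from 11312805 to 11449287 on the plus strand). The start windows of RefSeq (GRCm38.p6), each running from 250 bases before to 50 after the start, share 78 bases read from opposite strands, and the pair is printed because the genes moved together. Capitals mark matches to GGGCGG, the GC box, and to CCAAT, on either strand.
Col4a1, chr8:11312777-11313076, minus strand: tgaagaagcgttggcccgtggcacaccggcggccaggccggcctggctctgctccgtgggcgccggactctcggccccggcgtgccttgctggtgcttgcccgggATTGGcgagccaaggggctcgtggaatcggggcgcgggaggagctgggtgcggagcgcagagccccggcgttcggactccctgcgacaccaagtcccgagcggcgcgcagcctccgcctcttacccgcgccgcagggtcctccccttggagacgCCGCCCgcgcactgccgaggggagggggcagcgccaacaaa
Col4a2, chr8:11312555-11312854, plus strand: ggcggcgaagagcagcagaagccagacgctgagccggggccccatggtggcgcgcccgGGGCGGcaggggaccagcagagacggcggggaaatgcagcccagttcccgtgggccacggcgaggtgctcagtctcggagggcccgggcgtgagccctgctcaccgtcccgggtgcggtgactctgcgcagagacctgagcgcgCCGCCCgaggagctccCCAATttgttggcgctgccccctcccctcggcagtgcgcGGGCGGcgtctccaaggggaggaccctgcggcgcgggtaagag
The Col4a1 window holds 1 GC box and 1 CCAAT, and the Col4a2 window 3 GC boxes and 1 CCAAT. The GC box of Col4a1 lies in the shared bases and is the same site as the last of the 3 in Col4a2. Over 36 tumours the Spearman correlation of Col4a1 with Col4a2 was 0.89, and 0.94 after each group's mean was taken off, a description over tumours that share libraries and codes. The ratio of Col4a1 to Col4a2 per kilobase stayed between 1.44 and 2.86 in all 36 tumours, with a median of 2.10.

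The second head-to-head pair, Col4a3 and Col4a4, encodes chains of the specialised network known from the alveolus and the kidney glomerulus, and its annotated starts lie 72 bases apart on chromosome 1. Col4a3 ranged from 26.3 to 97.1 CPM in Variant 3 sgSetd2 tumours (median 51.1), from 10.4 to 116 in Variant 3 sgNeo (53.4), from 37.2 to 83.6 in Variant 1 sgSetd2 (58.1) and from 19.8 to 69.6 in Variant 1 sgNeo (42.4). Col4a4 averaged 28.2 ± 8.21 CPM in Variant 3 sgSetd2 codes and 21.9 ± 6.96 in Variant 3 sgNeo codes, and 26.5 ± 5.85 CPM in Variant 1 sgSetd2 codes and 15.1 ± 4.09 in Variant 1 sgNeo codes (SD, n = 3 codes each). The tumours of the guides overlapped for both genes, and the codes too, except those of Col4a4 in Variant 1. The pair correlated at 0.77 over 36 tumours, and its ratio per kilobase ran more widely, between 0.935 and 5.08. Exons of Col4a3 share 5.6% of their bases with C430014B12Rik on the opposite strand, and reads of both cannot be told apart if strand was not used. In the average over variants, log2 fold changes were 0.12 for Col4a3 (SE 0.26, adjusted p = 0.851), 0.59 for Col4a4 (SE 0.21, adjusted p = 0.117) and -0.20 for Col4a5, an X-linked chain of the same network (SE 0.25, adjusted p = 0.693).

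The third head-to-head pair is Col4a6 and Col4a5. Col4a6, another type IV chain gene, starts 1309 bases from Col4a5 on the opposite strand of chromosome X. Col4a5 was counted in all 36 tumours, between 12.5 and 56.3 CPM, whereas Col4a6 had counts in 15 tumours and reached at most 4.73 CPM. Col4a6 was counted in 4 of 9 tumours in Variant 3 sgSetd2 and 1 of 9 in Variant 3 sgNeo, and in 7 of 9 in Variant 1 sgSetd2 and 3 of 9 in Variant 1 sgNeo. The pair correlated at 0.36 over 36 tumours, and the per-kilobase level of Col4a6 over that of Col4a5 ran from 0 to 0.215. The averaged log2 fold change of Col4a6 was 1.18 (SE 1.23, adjusted p = 0.637).

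Col1a1, one of the chains of type I collagen, was low in most libraries and high in few. It was counted in 33 of 36 tumours and passed 10 CPM in 4. Those were tumour 1 of CE467 at 105 CPM and tumour 4 of CE468 at 11.4 CPM (Variant 1 sgNeo), tumour 4 of CE479 at 42.8 CPM (Variant 1 sgSetd2) and tumour 3 of CE454 at 17.9 CPM (Variant 3 sgSetd2). The group medians were 1.05 CPM in Variant 3 sgSetd2, 2.44 in Variant 3 sgNeo, 1.80 in Variant 1 sgSetd2 and 0.48 in Variant 1 sgNeo tumours. Every group overlapped every other. Guides did not separate it, with log2 fold changes of 0.97 in Variant 3 (SE 1.53, adjusted p = 0.846), -1.50 in Variant 1 (SE 1.54, adjusted p = 0.718) and -0.26 averaged over variants (SE 1.07, adjusted p = 0.923).

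To separate genes that follow Col1a1 over tumours from those that do not, the Spearman correlation with Col1a1 was taken over the 36 tumours, and a gene at 0.5 or more was said to follow it. 5 of the 35 other classified genes did. They were Col3a1 (0.82), Col1a2 (0.79), Col5a2 (0.60), Col6a3 (0.55) and Col5a1 (0.53), and all but Col6a3, a type VI chain, encode chains of fibrillar collagens. Col8a1 lay just outside at 0.49, and the other 29 ran down to -0.17 in Col4a1, with Col26a1 (-0.17) and Col6a1 (-0.14) beside it. These values fixed the classes and are given as a description. Tumours of a code and chains of 1 protein are not independent of each other.

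**Figure D2:**
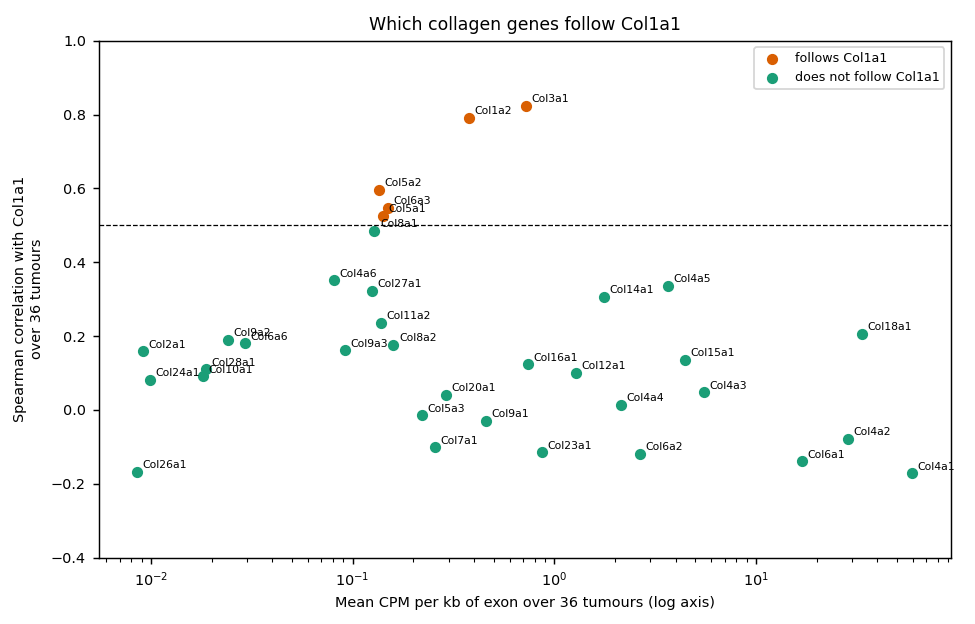
Spearman correlation with Col1a1 over 36 tumours (vertical axis) against mean CPM per kilobase of exon (log axis) for the 35 other classified collagen genes, with the threshold of 0.5 as a broken line. Col3a1 at 0.82 and Col1a2 at 0.79 stand clear of it, while the abundant Col4a1, Col18a1, Col4a2 and Col6a1 lie between -0.17 and 0.21.

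The followers drew most of their level from the 4 tumours with Col1a1 above 10 CPM, and so did some genes that do not follow Col1a1. Col3a1, the type III collagen chain, stood at 107 CPM in tumour 1 of CE467, 62.6 in tumour 4 of CE479, 23.0 in tumour 3 of CE454 and 5.22 in tumour 4 of CE468, and its median over a group was at most 2.55 CPM. These 4 tumours held 73.2% of the summed CPM of Col1a1, 77.4% of Col3a1, 79.0% of Col1a2, 80.1% of Col5a1, 78.1% of Col5a2 and 78.0% of Col6a3. Of the 30 genes that do not follow, 4 also had most of their summed CPM there, Col9a1 (92.7%), Col28a1 (75.1%), Col5a3 (70.8%) and Col8a1 (63.0%). Single tumours made much of these shares. Tumour 1 of CE467 had 77.5 CPM of Col9a1 and 32.8 CPM of Col5a3. Col28a1 was at 2.49 CPM in tumour 3 of CE454 and had no count in the rest of the 4. Without these 4 tumours, 2 genes still reached 0.5, Col3a1 at 0.75 and Col1a2 at 0.70. Col5a2 was then at 0.43, Col6a3 at 0.37 and Col5a1 at 0.32, so their place in the class rests on those tumours. Without the 2 tumours farthest from the median of Col1a1, 3 genes followed.

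Of the 15 non-collagen fibroblast genes, 9 correlated with Col1a1 at 0.5 or more over the 36 tumours, and 6 did not. Ties at 0 enter these values. Thy1 (0.57) and Tcf21 (0.58) are among the 9 with counts in only 10 and 8 tumours, and Mfap5 and Fbn1 had medians of 0 CPM. Pdgfrb (0.68), Mfap5 (0.65) and Fbn1 (0.64) had the highest values, while the proteoglycan gene Dcn was at 0.37. Serpinf1, the most abundant of the list at a mean of 55.3 CPM, was at -0.11. The 15 genes summed to 23.3 to 149 CPM in Variant 3 sgSetd2 tumours and 53.4 to 185 in Variant 3 sgNeo, and to 8.77 to 167 CPM in Variant 1 sgSetd2 and 43.0 to 217 in Variant 1 sgNeo, with 1 to 11 of the genes at 1 CPM or more in a tumour. Lum, Thy1 and Tcf21 never reached 1 CPM, and Dpt and Mfap4 had no count in Variant 3 sgNeo. All other genes of the list passed 1 CPM in some tumour, with maxima of 88.2 CPM for Dcn, 69.0 for Eln, 34.4 for Postn and 25.7 for Pdgfrb. Col3a1 correlated with the mean log2 level of the list at 0.78, Col1a1 at 0.74 and Col1a2 at 0.73, against 0.14 for Col18a1 and 0.20 for Col14a1. Endothelial genes summed to at most 16.6 CPM in any tumour, and their mean log2 level correlated with Col1a1 at 0.40 and with Col3a1 at 0.58. Smooth muscle and pericyte genes summed to 136 CPM in tumour 1 of CE467 and 35.3 CPM in tumour 4 of CE479. Their mean log2 level correlated with Col1a1 at 0.56 and with Col3a1 at 0.57, so fibroblast genes were not alone in this. Mesothelial genes summed to 41.3 CPM in tumour 2 of CE479.

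In 1 tumour a cartilage-type collagen stood beside the fibrillar ones. Col9a1, a chain of the cartilage FACIT type IX, had 77.5 CPM in tumour 1 of CE467 and at most 1.55 CPM in each of the other 35 tumours. Its Spearman correlation with Col1a1 was -0.03, and 14 of 36 tumours had a count of it. Cartilage marker genes summed to at most 1.61 CPM in any tumour, and Matn1 had no count in any library.

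The comparison of guides asked which collagen genes changed with sgSetd2. Averaged over both variants, Col12a1, Col6a2 and Col20a1 rose and Col14a1 and Col18a1 fell, and none of the 5 follows Col1a1. That is 5 of 36 tested genes, or 13.9%, where 7.35% of all 20009 genes tested passed, and it comprises 3 higher, against 3.72% of all genes, and 2 lower, against 3.63%. The median log2 fold change of the 36 was 0.02, against 0.01 for all genes tested, with 18 genes on each side of 0. None of Col1a1 and its 5 followers passed, and their log2 fold changes lay between -0.67 (Col6a3) and 0.97 (Col1a2). Those changes were loosely estimated. Within Variant 1 their SE ran from 1.54 (Col1a1) to 2.64 (Col5a2), against 0.55 for Col18a1 and 1.57 for Col14a1. The lack of a call therefore does not show that they were unchanged. Adjusted p-values here and below are from edgeR's quasi-likelihood test with Benjamini-Hochberg adjustment over all 20009 genes.

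**Figure D3:**
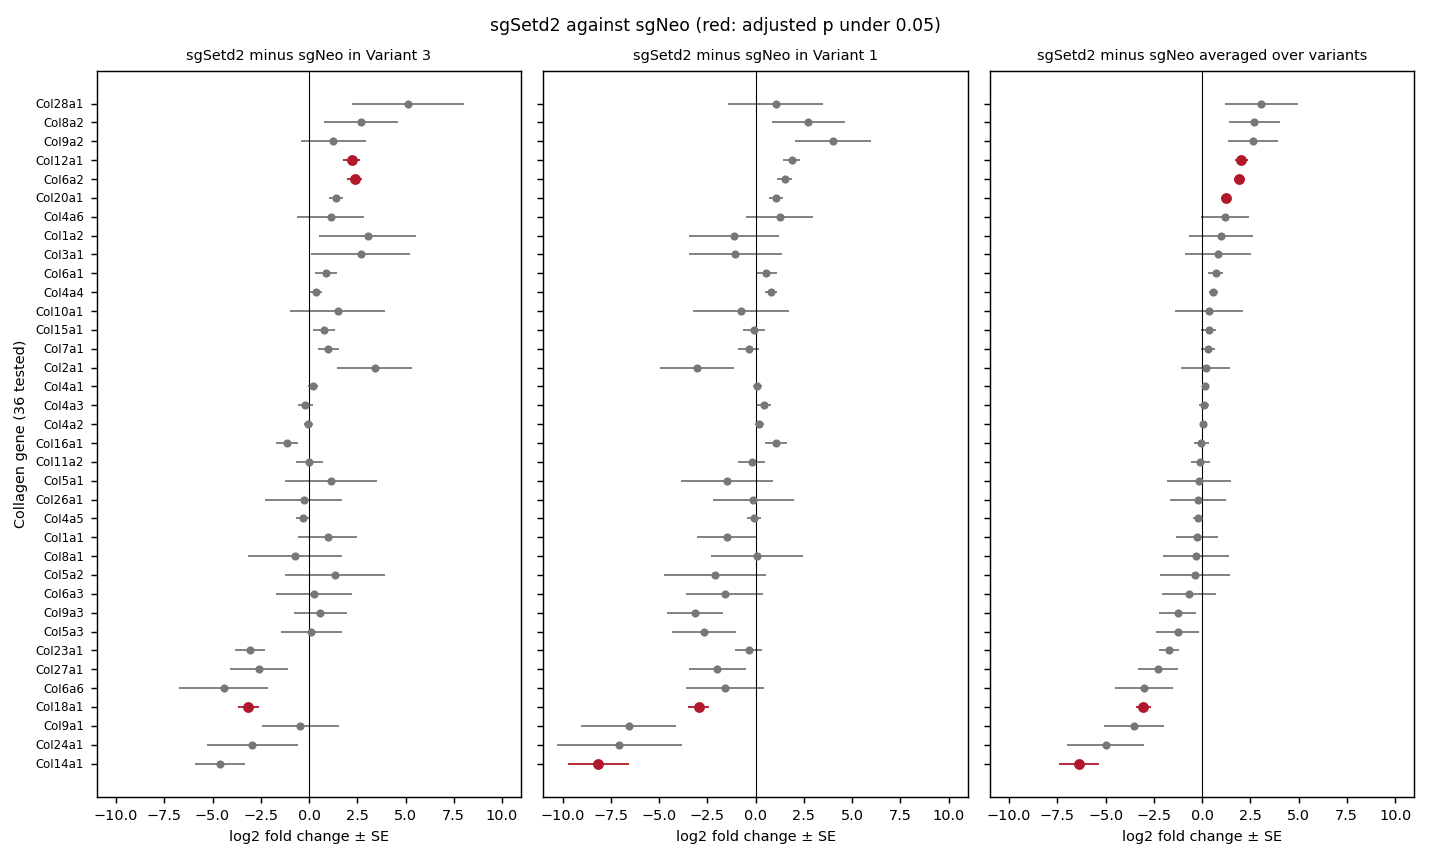
Log2 fold change of sgSetd2 over sgNeo with its SE for the 36 tested collagen genes, in Variant 3, in Variant 1 and averaged over the variants, with genes that passed an adjusted p of 0.05 in red. In the average Col12a1, Col6a2 and Col20a1 lie to the right of 0 and Col18a1 and Col14a1 to the left.

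Col18a1 (ENSMUSG00000001435.14), the type XVIII collagen gene that gives endostatin, fell in sgSetd2 tumours of both variants. The Variant 3 sgSetd2 codes CE450, CE454 and CE456 had 20.7, 83.4 and 27.8 CPM, against 404, 308 and 462 CPM in the sgNeo codes CE428, CE429 and CE433. The Variant 1 sgSetd2 codes CE475, CE479 and CE483 had 56.8, 95.9 and 67.3 CPM, against 257, 577 and 859 CPM in the sgNeo codes CE467, CE468 and CE472. The codes of the guides did not overlap in either variant. The averaged log2 fold change was -3.05 (SE 0.39, adjusted p = 0.0014), an 8.27-fold lower level, with -3.15 in Variant 3 (SE 0.55, adjusted p = 0.0191) and -2.94 in Variant 1 (SE 0.55, adjusted p = 0.028). In these bulk libraries fewer cells with a transcript and less transcript per cell cannot be told apart.

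By tumour, the widest range of Col18a1 in CPM lay with sgNeo in both variants, where its level was also higher. Relative to its level the spread was not always wider there. In Variant 3 the codes had 44.0 ± 34.4 CPM with sgSetd2 and 391 ± 77.3 CPM with sgNeo (SD, n = 3 codes each). Col18a1 ranged from 11.5 to 108 CPM in Variant 3 sgSetd2 tumours (median 36.6) and from 78.2 to 1097 in Variant 3 sgNeo (median 215). It ranged from 44.2 to 119 CPM in Variant 1 sgSetd2 tumours (median 70.1) and from 44.2 to 1825 in Variant 1 sgNeo (median 116). The tumours of the guides overlap in both variants, but 6 of 18 sgNeo tumours and 0 of 18 sgSetd2 tumours passed 400 CPM, a limit chosen after the values were seen. Those were tumour 2 of CE428 (930 CPM) and tumours 1 and 2 of CE433 (1097 and 578) in Variant 3, and tumour 1 of CE467 (448), tumour 1 of CE468 (901) and tumour 2 of CE472 (1825) in Variant 1. The next highest tumour was tumour 2 of CE429 at 359 CPM. As a share of the per-kilobase collagen level, Col18a1 held a median of 3.47% in Variant 3 sgSetd2 tumours and 16.7% in Variant 3 sgNeo, and 6.84% in Variant 1 sgSetd2 and 13.7% in Variant 1 sgNeo, with a maximum of 69.3% in a Variant 1 sgNeo tumour.

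Col18a1 has 2 RefSeq start windows on the minus strand of chromosome 10 (GRCm38.p6), printed because reads per gene cannot say which start was used. Capitals again mark GC boxes and CCAAT on either strand.
Col18a1, upstream start, chr10:77166481-77166780, minus strand: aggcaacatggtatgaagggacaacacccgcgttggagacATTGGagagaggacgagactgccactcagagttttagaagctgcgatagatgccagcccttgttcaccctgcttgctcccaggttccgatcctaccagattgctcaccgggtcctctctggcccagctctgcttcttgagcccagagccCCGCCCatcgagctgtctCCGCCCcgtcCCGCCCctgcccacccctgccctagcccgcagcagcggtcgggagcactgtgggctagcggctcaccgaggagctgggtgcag
Col18a1, downstream start, chr10:77113656-77113955, minus strand: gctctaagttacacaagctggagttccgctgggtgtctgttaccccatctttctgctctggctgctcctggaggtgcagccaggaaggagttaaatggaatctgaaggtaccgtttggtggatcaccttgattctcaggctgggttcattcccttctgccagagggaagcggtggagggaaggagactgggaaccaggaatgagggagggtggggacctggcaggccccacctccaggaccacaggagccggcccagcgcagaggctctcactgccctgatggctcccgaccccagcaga
The upstream window holds 3 GC boxes and 1 CCAAT, and the downstream window holds no match to these or to TATAAA, to the AP-1 site TGANTCA or to the STAT site TTCNNNGAA. Searched on both strands, GGGCGG was found in 60.5% of the 38 collagen windows and in 35.7% of all 32851 windows, CCAAT in 34.2% and 37.4%, TATAAA in 13.2% and 13.6%, TGANTCA in 2.63% and 7.81%, and TTCNNNGAA in 5.26% and 8.30%. The collagen windows also held more G and C, a median of 59.8% against 52.7% in all windows. These shares were not adjusted for that. RefSeq windows matched 35 of the 44 genes. Col14a1, Col12a1, Col1a1 and Col4a3 had no entry.

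Col14a1 (ENSMUSG00000022371.15), a FACIT collagen that binds fibrils and the proteoglycan decorin, had the largest fall among the genes that passed. Its codes had 0.00742, 1.31 and 0.221 CPM in Variant 3 sgSetd2 (CE450, CE454, CE456), against 27.5, 2.68 and 8.18 CPM in Variant 3 sgNeo (CE428, CE429, CE433). They had 0.0468, 0.395 and 0.0540 CPM in Variant 1 sgSetd2 (CE475, CE479, CE483), against 21.4, 30.9 and 91.8 CPM in Variant 1 sgNeo (CE467, CE468, CE472). No sgSetd2 code reached the lowest sgNeo code of its variant. The averaged log2 fold change was -6.37 (SE 1.02, adjusted p = 0.00461), an 83.0-fold lower level, with -4.61 in Variant 3 (SE 1.31, adjusted p = 0.118) and -8.14 in Variant 1 (SE 1.57, adjusted p = 0.032). The difference of those 2 changes was not resolved (interaction 3.53, SE 1.74, adjusted p = 0.824).

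By tumour, many Col14a1 values lay at or near 0. Over the 18 sgSetd2 tumours it had a median of 0.0303 CPM and a maximum of 2.70, and over the 18 sgNeo tumours a median of 3.73 CPM and a maximum of 214. It passed 1 CPM in 1 of 9 Variant 3 sgSetd2 tumours and 6 of 9 Variant 3 sgNeo tumours, and in 1 of 9 Variant 1 sgSetd2 and 5 of 9 Variant 1 sgNeo tumours. Both guides include tumours with no count. The averaged log2 fold change moved between -5.50 without tumour 2 of CE428 and -7.45 without tumour 4 of CE454, with -5.76 without CE428, -7.41 without CE454, -7.24 without CE479, -5.70 without tumour 2 of CE472 and -7.36 without tumour 4 of CE479. It passed in each of the 48 leave-out fits (highest adjusted p = 0.0224).

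Col12a1 (ENSMUSG00000032332.17), another FACIT collagen, which links fibrils to their surroundings, went the other way from Col14a1. The Variant 3 sgSetd2 codes CE450, CE454 and CE456 had 39.0, 12.5 and 30.5 CPM, against 4.14, 7.95 and 5.62 CPM in CE428, CE429 and CE433 of Variant 3 sgNeo. The Variant 1 sgSetd2 codes CE475, CE479 and CE483 had 32.5, 39.2 and 27.6 CPM, against 13.0, 9.59 and 4.59 CPM in CE467, CE468 and CE472 of Variant 1 sgNeo. Codes of the guides did not overlap in either variant. The averaged log2 fold change was 2.04 (SE 0.32, adjusted p = 0.00385), a 4.11-fold higher level, with 2.21 in Variant 3 (SE 0.45, adjusted p = 0.0377) and 1.87 in Variant 1 (SE 0.44, adjusted p = 0.0641). Tumour medians were 32.5 CPM in Variant 3 sgSetd2 and 6.25 in Variant 3 sgNeo, and 31.5 CPM in Variant 1 sgSetd2 and 6.84 in Variant 1 sgNeo. Tumour 4 of CE468 (33.8 CPM) was the sgNeo tumour that reached the sgSetd2 range in Variant 1. The tumours overlapped in Variant 3 as well. There tumour 4 of CE454 with sgSetd2 was at 6.51 CPM, and the highest sgNeo tumour, tumour 1 of CE429, was at 9.19 CPM.

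Col6a2 (ENSMUSG00000020241.13), the alpha-2 chain of type VI collagen, rose as well. Its codes had 29.0, 47.1 and 19.1 CPM in Variant 3 sgSetd2 (CE450, CE454, CE456), against 5.28, 9.23 and 4.01 CPM in Variant 3 sgNeo (CE428, CE429, CE433). They had 36.3, 29.7 and 45.2 CPM in Variant 1 sgSetd2 (CE475, CE479, CE483), against 12.1, 17.3 and 9.68 CPM in Variant 1 sgNeo (CE467, CE468, CE472). The codes did not overlap in either variant, and in Variant 3 neither did the tumours, which ran from 17.996 to 52.0 CPM with sgSetd2 and from 0 to 15.2 CPM with sgNeo. The change averaged 1.93 on the log2 scale (SE 0.27, adjusted p = 0.0022), a 3.82-fold higher level, with 2.36 in Variant 3 (SE 0.39, adjusted p = 0.0136) and 1.51 in Variant 1 (SE 0.38, adjusted p = 0.0783).

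Its partner Col6a1, the alpha-1 chain that joins Col6a2 in the same microfilament and lies beside it on chromosome 10, did not pass. The Variant 3 sgSetd2 codes CE450, CE454 and CE456 had 41.2, 101 and 42.4 CPM of Col6a1, against 48.6, 42.8 and 9.60 CPM in Variant 3 sgNeo (CE428, CE429, CE433). The Variant 1 sgSetd2 codes CE475, CE479 and CE483 had 85.7, 70.1 and 165 CPM, against 53.1, 93.4 and 70.4 CPM in Variant 1 sgNeo (CE467, CE468, CE472). Codes overlap in both variants, and the averaged log2 change of 0.72 did not pass (SE 0.39, adjusted p = 0.303). Whether the change of Col6a2 differs from that of Col6a1 was not tested. The third common chain, Col6a3, was at 1.78 CPM on average, follows Col1a1, and had -0.67 on the averaged log2 scale (SE 1.39, adjusted p = 0.836). Over tumours, Col6a1 and Col6a2 correlated at 0.61, and at 0.85 after group means were taken off.

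Col20a1 (ENSMUSG00000016356.17), a FACIT collagen, had the smallest averaged log2 fold change of the 5 and the lowest mean level over the 36 tumours, although its median (1.33 CPM) lay above that of Col14a1 (0.143 CPM). Its codes had 2.39, 2.69 and 2.72 CPM in Variant 3 sgSetd2 (CE450, CE454, CE456), against 1.01, 1.20 and 0.718 CPM in Variant 3 sgNeo (CE428, CE429, CE433). They had 1.56, 2.002 and 1.93 CPM in Variant 1 sgSetd2 (CE475, CE479, CE483), against 0.993, 0.873 and 0.788 CPM in Variant 1 sgNeo (CE467, CE468, CE472). All 6 sgSetd2 codes lay above all 6 sgNeo codes. The tumours of the guides overlapped in both variants. They ran from 0.817 to 3.53 CPM over the 18 sgSetd2 tumours and from 0.0357 to 2.37 CPM over the 18 sgNeo tumours. The averaged log2 fold change was 1.23 (SE 0.26, adjusted p = 0.0162), with 1.42 in Variant 3 (SE 0.37, adjusted p = 0.0862) and 1.05 in Variant 1 (SE 0.36, adjusted p = 0.177). That call was lost without CE483 (adjusted p = 0.0505) and without tumour 2 of CE429 (adjusted p = 0.0572).

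**Figure D4:**
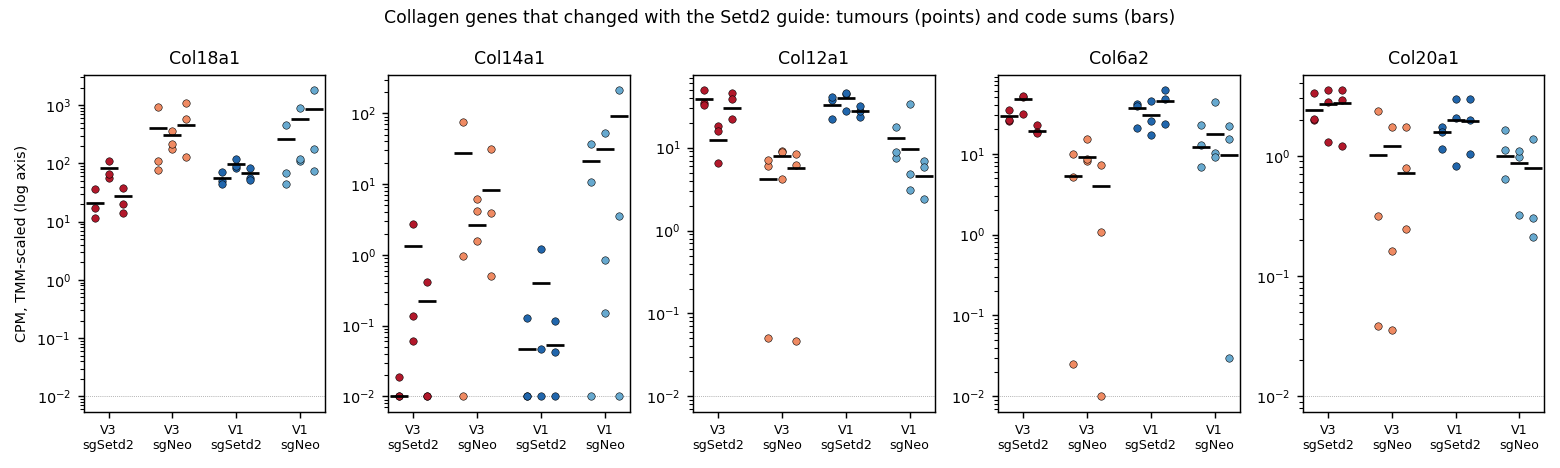
CPM (log axis) of the 5 collagen genes that changed with the guide, by tumour (points) and by code sum (short bars), for Variant 3 sgSetd2, Variant 3 sgNeo, Variant 1 sgSetd2 and Variant 1 sgNeo, with values under 0.01 drawn at the dotted line. Code bars of sgSetd2 lie below sgNeo for Col18a1 and Col14a1 and above it for Col12a1, Col6a2 and Col20a1, in each variant.

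These 5 changes were read beside the levels of Col1a1 and of fibroblast genes. Without the 4 tumours with Col1a1 above 10 CPM, the averaged log2 fold change was -2.99 for Col18a1 (adjusted p = 0.0105), -7.13 for Col14a1 (0.00471), 2.42 for Col12a1 (0.002), 1.82 for Col6a2 (0.00271) and 1.13 for Col20a1 (0.0388). With the fibroblast list as a covariate it was -3.14 for Col18a1, -6.88 for Col14a1, 2.07 for Col12a1, 1.91 for Col6a2 and 1.23 for Col20a1, with a highest adjusted p of 0.0229. In the average, 1 of 14 tested fibroblast genes passed, 7.14% of them where 7.35% of all genes did. It was Serpinf1, which also passed within each variant, falling with sgSetd2 by 2.65 in Variant 3, by 2.14 in Variant 1 and by 2.39 averaged over variants on the log2 scale (adjusted p = 0.00936, 0.025 and 0.00104). Male codes, read from Ddx3y, were 1 of 3 in Variant 3 sgSetd2 and 2 of 3 in Variant 3 sgNeo, and 1 of 3 in Variant 1 sgSetd2 and 0 of 3 in Variant 1 sgNeo. With sex as a covariate all 5 passed in the average (highest adjusted p = 0.0269).

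Within a single variant, fewer genes passed. In Variant 3, Col12a1 and Col6a2 rose and Col18a1 fell, 3 of 36 tested (8.33%) against 1.49% of all genes, with 0.88% of all genes higher and 0.615% lower. In Variant 1, Col14a1 and Col18a1 fell and none rose, 2 of 36 (5.56%) against 1.42% of all genes, with 0.7% higher and 0.72% lower. The medians over the 36 were 0.48 in Variant 3 and -0.27 in Variant 1, against 0.02 and -0.01 over all genes. Several others came near: Col23a1, a transmembrane collagen, had -3.06 in Variant 3 (SE 0.76, adjusted p = 0.0759) and -0.35 in Variant 1 (SE 0.70, adjusted p = 0.874).

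Every call within a variant was lost when some single code or tumour was left out, in part libraries of the other variant. In Variant 3, Col18a1 was lost without CE428, CE433, CE450 or CE456, without tumour 2 of CE428, and without the Variant 1 sgNeo tumours 1 of CE467 and 1 of CE468 (adjusted p between 0.0641 and 0.0879). Col6a2 was lost there without CE428, CE433 or tumour 3 of CE433 (0.0637 to 0.0981). Col12a1 was lost without CE428, CE429, CE433, CE450, CE456, CE468, CE475 or CE483 (0.0536 to 0.15) and without 6 single tumours, namely tumours 1 and 4 of CE468, 2 of CE428, 2 of CE433, 3 of CE454 and 6 of CE472 (0.0525 to 0.0689). In Variant 1, Col18a1 was lost without CE468, CE472, CE475 or CE483 (0.0761 to 0.14) and without tumours 1 of CE467, 1 of CE468, 2 of CE428, 2 of CE472 and 3 of CE433 (0.0567 to 0.159). Col14a1 was lost there without CE467, CE468, CE472, CE475 or CE483 (0.0542 to 0.154) and without tumours 1 of CE467, 1 of CE468, 1 of CE479, 2 of CE472, 3 of CE433 and 9 of CE456 (0.056 to 0.139). Other settings also ended some of these calls. In Variant 3, Col18a1 was lost with no filter on low counts (adjusted p = 0.0617) and without the tumours with Col1a1 above 10 CPM (0.0924), and Col6a2 with limma voom (0.101). In Variant 1, Col14a1 was lost with no filter (0.115) and with voom (0.118). Col18a1 was lost there with no filter (0.0745), with sex as a covariate (0.0611), without the tumours with Col1a1 above 10 CPM (0.0958), with limma on mean log2-CPM (0.187) and with voom (0.207). The log2 fold change of Col18a1 was -4.01 without CE454 in Variant 3 and -2.17 without tumour 2 of CE472 in Variant 1. That of Col14a1 in Variant 1 was -7.27 without CE472, -6.77 without tumour 2 of CE472, -8.78 without tumour 6 of CE472, -9.87 without CE479 and -10.10 without tumour 4 of CE479. With 1 code or tumour left out, the log2 fold change in Variant 3 lay between 1.86 and 2.56 for Col12a1 and between 1.96 and 2.78 for Col6a2. Directions did not change in any of these fits, and libraries of the other variant enter them through the shared estimate of spread.

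The variants were then compared under each guide. No collagen gene passed between Variant 3 and Variant 1 in sgSetd2 tumours, where 0.13% of all genes did (0.005% higher, 0.125% lower), nor in sgNeo tumours, where 0.005% did (0% higher, 0.005% lower). Under edgeR 3 of 36 collagen genes had an unadjusted p under 0.05 in sgSetd2 tumours, beside 1940 of all 20009 genes. In sgNeo tumours 4 of 36 did, beside 2080 of all 20009. DESeq2 called 3 (Col15a1, Col16a1 and Col23a1) and 1 (Col7a1), and the share of all genes it called is not given here. Col15a1, the other multiplexin, had 49.6 ± 16.4 CPM in Variant 3 sgSetd2 codes and 14.1 ± 11.1 CPM in Variant 1 sgSetd2 codes (log2 fold change 1.81, SE 0.58, adjusted p = 0.327), and its codes did not overlap. Col16a1, a FACIT-like collagen, had 1.64 ± 0.947 CPM in Variant 3 sgSetd2 and 8.76 ± 5.02 CPM in Variant 1 sgSetd2 codes (-2.42, SE 0.59, adjusted p = 0.177). Col18a1 had log2 fold changes of -0.74 in sgSetd2 (SE 0.51, adjusted p = 0.672) and -0.53 in sgNeo (SE 0.51, adjusted p = 0.783). In the interaction of guide and variant no collagen gene and 0% of all genes passed, and DESeq2 called no collagen gene. Under edgeR 3 collagen genes had an unadjusted p under 0.05, beside 1200 of all 20009 genes.

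Some collagen genes moved together from tumour to tumour apart from Col1a1. Col14a1 and Col18a1 correlated at 0.78 over the 36 tumours, at 0.44 within the 18 sgSetd2 tumours and at 0.79 within the 18 sgNeo tumours. Col27a1, a fibrillar collagen, correlated with Col18a1 at 0.57, 0.34 and 0.76 over the same sets. In the 6 tumours with most Col18a1, Col14a1 stood at 74.2 CPM in tumour 2 of CE428, 31.5 and 3.87 in tumours 1 and 2 of CE433, 36.6 in tumour 1 of CE467, 52.1 in tumour 1 of CE468 and 214 in tumour 2 of CE472. Outside those 6 the highest Col14a1 was 10.7 CPM, in tumour 2 of CE467. Col27a1 lay between 3.61 and 11.1 CPM in those 6 and at most at 3.38 CPM elsewhere.

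Type VI collagen ran low in some of those tumours. Col6a1 and Col6a2 were at 2.15 and 0.0250 CPM in tumour 2 of CE428, both at 0 in tumour 1 of CE433, at 5.52 and 1.09 CPM in tumour 2 of CE433 and at 0.690 and 0.0300 CPM in tumour 2 of CE472. In tumour 1 of CE467 they were at 26.1 and 6.86 CPM and in tumour 1 of CE468 at 62.2 and 10.3 CPM, within the range of other sgNeo tumours. No other tumour had less than 16.01 CPM of Col6a1 or 5.14 CPM of Col6a2. These tumours were picked by their level of Col18a1, so the values are a description with no test.

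**Figure D5:**
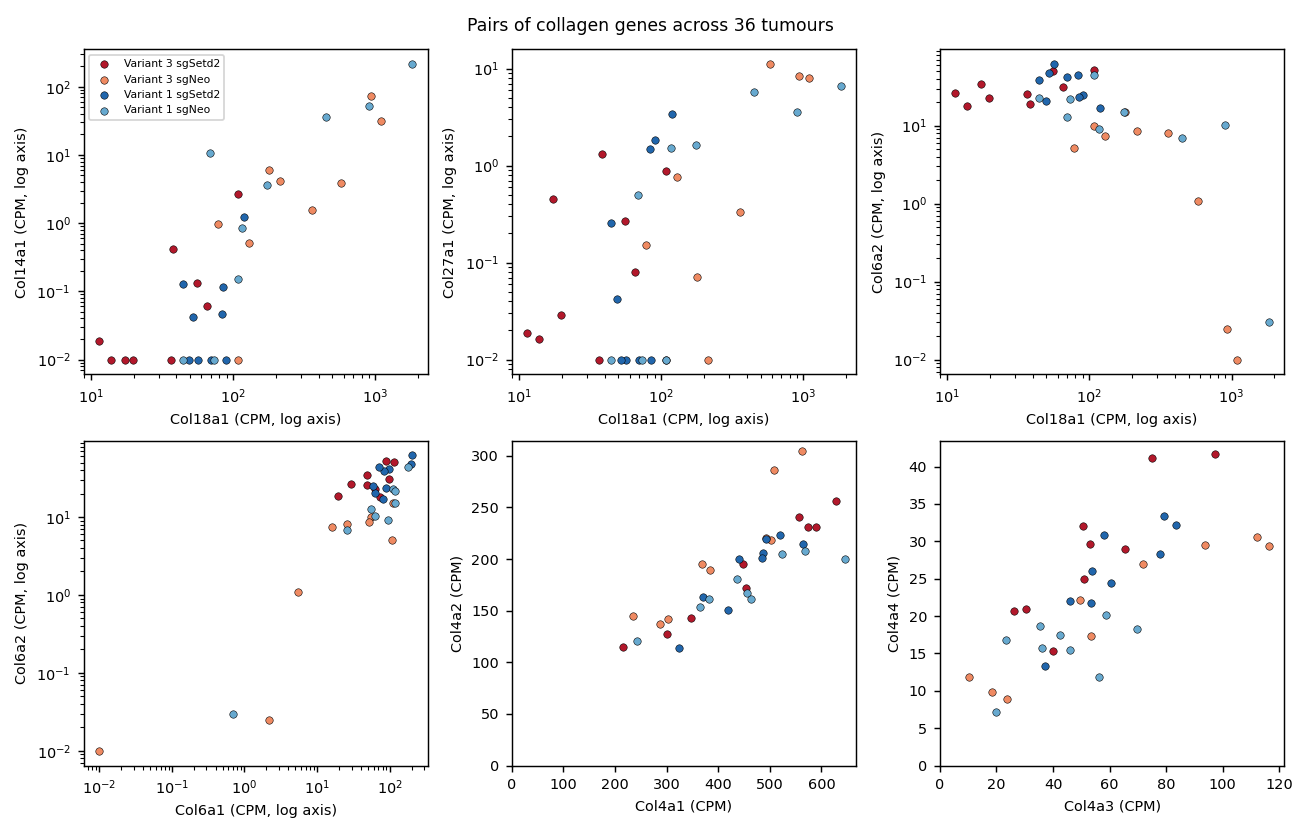
Pairs of collagen genes by tumour, coloured by group, in CPM on log axes (upper row and lower left; values under 0.01 are drawn at 0.01) and on linear axes for the head-to-head pairs Col4a1 with Col4a2 and Col4a3 with Col4a4. Col14a1 and Col27a1 are high where Col18a1 is high, the lowest points of Col6a2 fall at high Col18a1, and Col4a1 follows Col4a2 along a line.

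Genes that handle collagen were read from lists of enzymes and chaperones, receptors, basement membrane partners and proteases. Of 29 tested collagen processing genes, Fkbp10, the gene of a prolyl isomerase that assists procollagen folding, was the 1 that changed, 3.45% of the list in each of the 3 guide contrasts, where 7.35% of all genes passed on average, 1.49% in Variant 3 and 1.42% in Variant 1. It fell by 3.24 in Variant 3 (SE 0.37, adjusted p = 0.00263), by 2.28 in Variant 1 (SE 0.35, adjusted p = 0.0164) and by 2.76 on average (SE 0.25, adjusted p = 0.0004) on the log2 scale. The collagen chaperone gene Serpinh1 had an averaged log2 fold change of -0.17 (SE 0.30, adjusted p = 0.805). Of 9 tested receptors 1 passed (11.1%) on average and in Variant 1. Mrc2, which takes up collagen for breakdown, rose by 2.86 in Variant 1 (SE 0.38, adjusted p = 0.0115) and by 2.25 on average (SE 0.27, adjusted p = 0.00107), with 1.65 in Variant 3 (SE 0.37, adjusted p = 0.0535). Of 15 basement membrane partners 1 passed on average (6.67%). The perlecan gene Hspg2 fell by 1.58 on average (SE 0.43, adjusted p = 0.0477), with -2.39 in Variant 3 (adjusted p = 0.0882) and -0.76 in Variant 1 (adjusted p = 0.604). None of 8 tested breakdown genes passed in these 3 contrasts. An unadjusted edgeR p under 0.05 was given to 2 on average, 1 in Variant 3 and 1 in Variant 1. Over all 20009 genes the same limit was met by 4582, 3020 and 3186.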

How the data were processed

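Raw read counts per gene were deposited by the authors as a single table, tumours in columns and versioned Ensembl identifiers in rows. RNA was isolated with the PicoPure kit and libraries made with the SMART-Seq mRNA kit, per the labels' protocols; STAR 2.5.3a, R 4.2 and DESeq2 1.38.3 are named, per the submitters' processing notes. The sources used here name no counting tool, strand setting, build or annotation. The kit leaves strand unmarked, which makes overlapping and antisense genes uncertain. Identifiers were matched to GENCODE mouse release M21 (GRCm38), 49326 of 49585, which gave symbols, coordinates and exon lengths; the authors' build may differ. Windows around starts came from RefSeq (GRCm38.p6).

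Each code's 3 tumours were added up, and the resulting 12 sums entered 1 model in edgeR 4.0.16 (R 4.3.3; 20009 genes kept by filterByExpr, TMM, glmQLFit robust, glmQLFTest), with Benjamini-Hochberg adjustment at 0.05. SE is the absolute log2 fold change over the square root of F. Tested on simulated data for the Variant 1 guide comparison (20009 genes, 200 changed), the model found 39% of 2-fold and 77% of 4-fold changes with 6 false calls. The changed genes were drawn from those with a mean above 1 CPM, with negative binomial counts at the fitted dispersions. These rates therefore do not cover collagen genes at lower levels. Classification needed 10 counts in 3 tumours and used CPM. Alternatives were other scalings, filters, tests, units and covariates, and leaving out codes or tumours, run with DESeq2 1.42.0 and limma 3.58.1. Members and lists were chosen with earlier results of these data known. Values are given for Col1a1, Col14a1, Col18a1, the genes that passed, the 8 highest per kilobase, the 3 highest and 3 lowest correlations with Col1a1 and head-to-head partners; Col5a1, Col5a3, Col6a3, Col7a1, Col8a1, Col9a1, Col16a1, Col23a1, Col27a1 and Col28a1 were named after their values were seen, as were the correlated pairs.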

Additional observations from a re-analysis of the deposited data

Results flagged for a closer look

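Single tumours that stood apart from the other 8 of their group by Dixon's 95% criterion, on log2(CPM + 0.1), were found for 10 of 72 combinations of a named gene and a group. The criterion flags about 1 in 20 where values are normal and independent. Many values here are 0 and the genes share tumours, so no excess over chance can be read from 10 of 72. Col14a1 was high in tumour 4 of CE454 (2.70 CPM, Variant 3 sgSetd2) and in tumour 4 of CE479 (1.21 CPM, Variant 1 sgSetd2). The averaged change of Col14a1 was larger without either tumour, -7.45 and -7.36 on the log2 scale. Col6a2 at 0.0300 CPM and Col6a1 at 0.690 CPM were low in tumour 2 of CE472 (Variant 1 sgNeo), the tumour with the highest Col18a1. Col5a2 was high in tumour 1 of CE467 (25.9 CPM, Variant 1 sgNeo), which also had the highest Col1a1. Col4a5 (16.955 CPM) and Col4a4 (13.3 CPM) were low in tumour 4 of CE479 (Variant 1 sgSetd2). Col26a1 was high in tumour 1 of CE479 (0.208 CPM, Variant 1 sgSetd2) and tumour 3 of CE468 (0.380 CPM, Variant 1 sgNeo), in groups where most tumours had no count. Col4a6 was high in tumour 3 of CE429 (1.19 CPM, Variant 3 sgNeo), the other 8 tumours of that group having no count.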

How the results depend on the processing

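The averaged calls of Col12a1, Col14a1, Col18a1 and Col6a2 held under all 58 alternatives and that of Col20a1 in 55, the others being no filter (adjusted p = 0.0591) and the 2 leave-outs given above. No fold change reversed. In Variant 3 the 3 calls became 6 with DESeq2, 5 with limma on mean log2-CPM and 5 with 36 tumours as samples, a fit that ignores the codes. These counts of calls and those below are given without the share of all genes called under each setting. They therefore do not show a change particular to collagen genes. In Variant 1 the 2 calls became 0 without a filter, 5 with DESeq2, 1 with limma on mean log2-CPM, 1 with voom and 1 with sex as a covariate. Leaving out codes or tumours gave 0 to 4 calls in Variant 3, 0 to 4 in Variant 1 and 4 to 6 in the average. Between variants the 0 calls became 3 with DESeq2, 1 with 36 tumours (Col23a1) and 1 with voom (Col15a1) in sgSetd2, and 1 with DESeq2 in sgNeo. The 5 followers of Col1a1 became 2 without the tumours above 10 CPM, 3 without the 2 farthest tumours, 2 at a threshold of 0.7, and 4 to 6 leaving out 1 tumour. The cause was not tested. Averaged changes moved by more than 1.5-fold with limma on mean log2-CPM (Col12a1 2.69, Col14a1 -4.64, Col18a1 -2.31, Col6a2 2.84) and with voom (Col12a1 2.66, Col18a1 -2.34, Col6a2 3.13). That of Col14a1 also did so without the tumours with Col1a1 above 10 CPM (-7.13) and in some leave-outs, which reached -5.50 and -7.45. No paired analysis was possible because the tumour numbers in the titles tie no tumours together across codes. The number of codes, 3 per group, limits every test.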
